A study of Mus musculus with 384 samples.

Results

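The receptors that set the tone of airway smooth muscle were followed in single mesenchymal cells of the mouse lung. The set held 9 genes, chosen by name: the muscarinic acetylcholine receptors Chrm2 and Chrm3, the histamine receptor Hrh1, the endothelin receptors Ednra and Ednrb, the angiotensin II receptor Agtr1a, the cysteinyl leukotriene receptor Cysltr1, the alpha-1B adrenergic receptor Adra1b and the natriuretic peptide clearance receptor Npr3. All 9 were present among the 23422 genes of the count table, and each had at least 1 count in at least 1 of the cells that the authors kept. Names and not levels set the choice, although earlier results of these data were known.

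Airway smooth muscle shortens when acetylcholine, histamine, endothelin or cysteinyl leukotrienes bind receptors on its surface. Most of these receptors couple to Gq, which releases calcium and activates myosin light chain kinase, while Chrm2 couples to Gi and opposes the relaxing effect of cyclic AMP. Npr3 differs from the rest because it mainly takes up natriuretic peptides and so limits their relaxing action.

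Cells came from 2 mouse lines with 2 mice each. In Lgr5-CreERT2;R26-Tom mice, tamoxifen activates a Cre recombinase made from the Lgr5 locus, so that the red reporter Tom marks cells that expressed Lgr5 at the time of treatment together with their descendants. In Lgr6-EGFP-CreERT2 mice, EGFP is made from the Lgr6 locus itself and marks cells that express Lgr6 at the time of the sort. Mice in most experiments of the study were 7 to 10 weeks old; the ages of these 4 mice were not stated. Cells of both lines were sorted as CD31-, CD45-, CD11b- and TER119-, and as Tom+ or GFP+. Line, reporter and labelling scheme therefore differed together and cannot be told apart. The full-length Smart-seq2 protocol was used, without molecular identifiers.

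Of 380 single-cell wells, 198 were removed and the rest kept: 29 and 28 cells from the 2 Lgr5 mice, and 50 and 75 from the 2 Lgr6 mice. Median totals were 263129 and 272729 counts per cell in the Lgr5 mice, 332588 in Lgr6 mouse 1 and 1537593 in Lgr6 mouse 2. Lgr6 cells were divided by their own level of Acta2, the smooth muscle actin gene, at a log2(TPM + 1) of 11. This left 65 Acta2-high cells (27 and 38 per mouse) and 60 lower cells (23 and 37). In the Lgr5 mice 1 cell of mouse 1 and 0 cells of mouse 2 reached this level. The division cuts a range and not a gap: 26 kept Lgr6 cells lay within 1 log2 unit of it, and the nearest cells on either side had 10.97 and 11.03.

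Rn45s, a ribosomal RNA precursor, took 25% to 37.5% of the counts of each mouse. Acta2 set the division of the cells, so it is left out of the marker sum given first. The other 7 airway smooth muscle markers (Des, Cnn1, Myh11, Actg2, Mylk, Tagln and Actc1) summed to 15099 and 14847 CPM (counts per unit of library total, here without TMM) in the Acta2-high cells of the 2 Lgr6 mice, against 762 and 1203 CPM in the lower cells, with no marker at 0 in any of these groups. With Acta2 the sums were 22649 and 24377 CPM against 1110 and 1749 CPM. Of 12 pericyte and vascular mural markers, Notch3, Higd1b and Ndufa4l2 were at 0 in Acta2-high cells of both mice, and Notch3, Higd1b and Trpc6 in lower cells of both. The list summed to 1371 and 1427 CPM in Acta2-high cells against 831 and 543 CPM in lower cells. Among its genes Postn gave 399 and 365 CPM with TMM in Acta2-high cells of Lgr6 mice 1 and 2 against 6.5 and 25.6 CPM in lower cells, and Mcam 115.8 and 139.8 CPM against 1.02 and 3.20 CPM. The lower cells carried other signals: alveolar type II and airway epithelial markers summed to 3420 and 22458 CPM against 39.7 and 66.4 CPM in Acta2-high cells, and alveolar fibroblast markers to 528 and 923 CPM against 166.3 and 62.9 CPM. The same epithelial list reached 48236 and 28708 CPM in the Lgr5 mice, mostly from Sftpc. Endothelial markers were at 0 for all 8 genes in Acta2-high cells of both mice and ranged up to 190 CPM elsewhere, and immune markers never exceeded 27.8 CPM. The part of these other signals in the receptor values was not tested.

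All 9 genes have a place on GRCm38, the assembly of the build mm10 that the authors used, in the GENCODE vM21 annotation. Chrm2 lies on chromosome 6 from 36388084 to 36528414 on the plus strand, and Ednrb on chromosome 14 from 103814625 to 103844402 on the minus strand. Ednra lies on chromosome 8 from 77663031 to 77724464 on the minus strand, and Cysltr1 on chromosome X from 106574346 to 106603679 on the minus strand. The remaining genes are Chrm3 (chromosome 13), Hrh1 (chromosome 6), Agtr1a (chromosome 13), Adra1b (chromosome 11) and Npr3 (chromosome 15), and all 9 are protein coding.

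RefSeq start regions of 300 bases on GRCm38.p6 matched 7 of the 9 genes by symbol, and none matched Agtr1a or Cysltr1. Those of Chrm2, Ednrb and Ednra are shown because these 3 receptors had the highest levels and differed in how they followed Acta2. Each reads 5′ to 3′ along its gene's strand, and capitals mark the E-box CANNTG and the GC box GGGCGG on either strand, of which no match overlapped another in these 3 sequences. The Chrm2 region is chr6:36387834-36388133 (plus strand), the Ednrb region chr14:103843652-103843951 (minus strand) and the Ednra region chr8:77724403-77724702 (minus strand). The Chrm2 and Ednra regions span the GENCODE start of their gene. The Ednrb region lies wholly inside the gene, downstream of its GENCODE start at 103844402.
Chrm2: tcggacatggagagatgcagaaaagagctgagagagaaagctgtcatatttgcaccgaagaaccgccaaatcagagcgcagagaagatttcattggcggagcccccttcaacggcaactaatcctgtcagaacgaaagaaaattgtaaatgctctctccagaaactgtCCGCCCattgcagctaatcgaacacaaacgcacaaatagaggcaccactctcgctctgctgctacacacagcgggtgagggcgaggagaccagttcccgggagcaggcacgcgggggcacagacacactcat
Ednrb: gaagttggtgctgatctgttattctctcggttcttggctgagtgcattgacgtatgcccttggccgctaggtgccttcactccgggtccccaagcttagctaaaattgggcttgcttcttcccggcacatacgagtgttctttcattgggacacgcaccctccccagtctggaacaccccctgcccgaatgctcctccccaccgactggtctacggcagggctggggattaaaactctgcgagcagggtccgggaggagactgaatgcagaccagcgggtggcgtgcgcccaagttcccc
Ednra: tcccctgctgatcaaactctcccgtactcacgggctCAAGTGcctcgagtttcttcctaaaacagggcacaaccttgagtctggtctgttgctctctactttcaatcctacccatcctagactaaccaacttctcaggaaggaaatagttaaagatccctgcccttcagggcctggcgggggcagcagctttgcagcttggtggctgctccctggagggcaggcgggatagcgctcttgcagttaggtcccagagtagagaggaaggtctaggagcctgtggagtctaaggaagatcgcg
Chrm2 held 1 GC box in this window, Ednra held 1 E-box and Ednrb held neither. None of the 3 held TATAAA or the CArG box of smooth muscle genes on either strand. Over all 32851 start regions of this length, 72.3% held an E-box, 35.7% a GC box, 13.6% TATAAA and 1.63% a CArG box. These are matches of letters and not measured binding.

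The 9 receptors fell into a widely detected pair, a group seen in a minority of cells and a group at the limit of detection. Ednra and Ednrb each had a count in 72.5% of kept cells, Ednra in 39 Lgr5 and 93 Lgr6 cells and Ednrb in 34 and 98. Chrm2 was detected in 54 cells (29.7%), Npr3 in 38 (20.9%), Cysltr1 in 13 (7.14%) and Chrm3 in 8 (4.4%). Adra1b was detected in 3 cells, Hrh1 in 2 and Agtr1a in 1. Shares of cells below carry exact Clopper-Pearson 95% intervals, which cover counting error only. Where no cell had a count, the share that 0 allows is given by another rule, as 3 cells of the total, and lies below the exact upper limit.

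**Figure D1:**
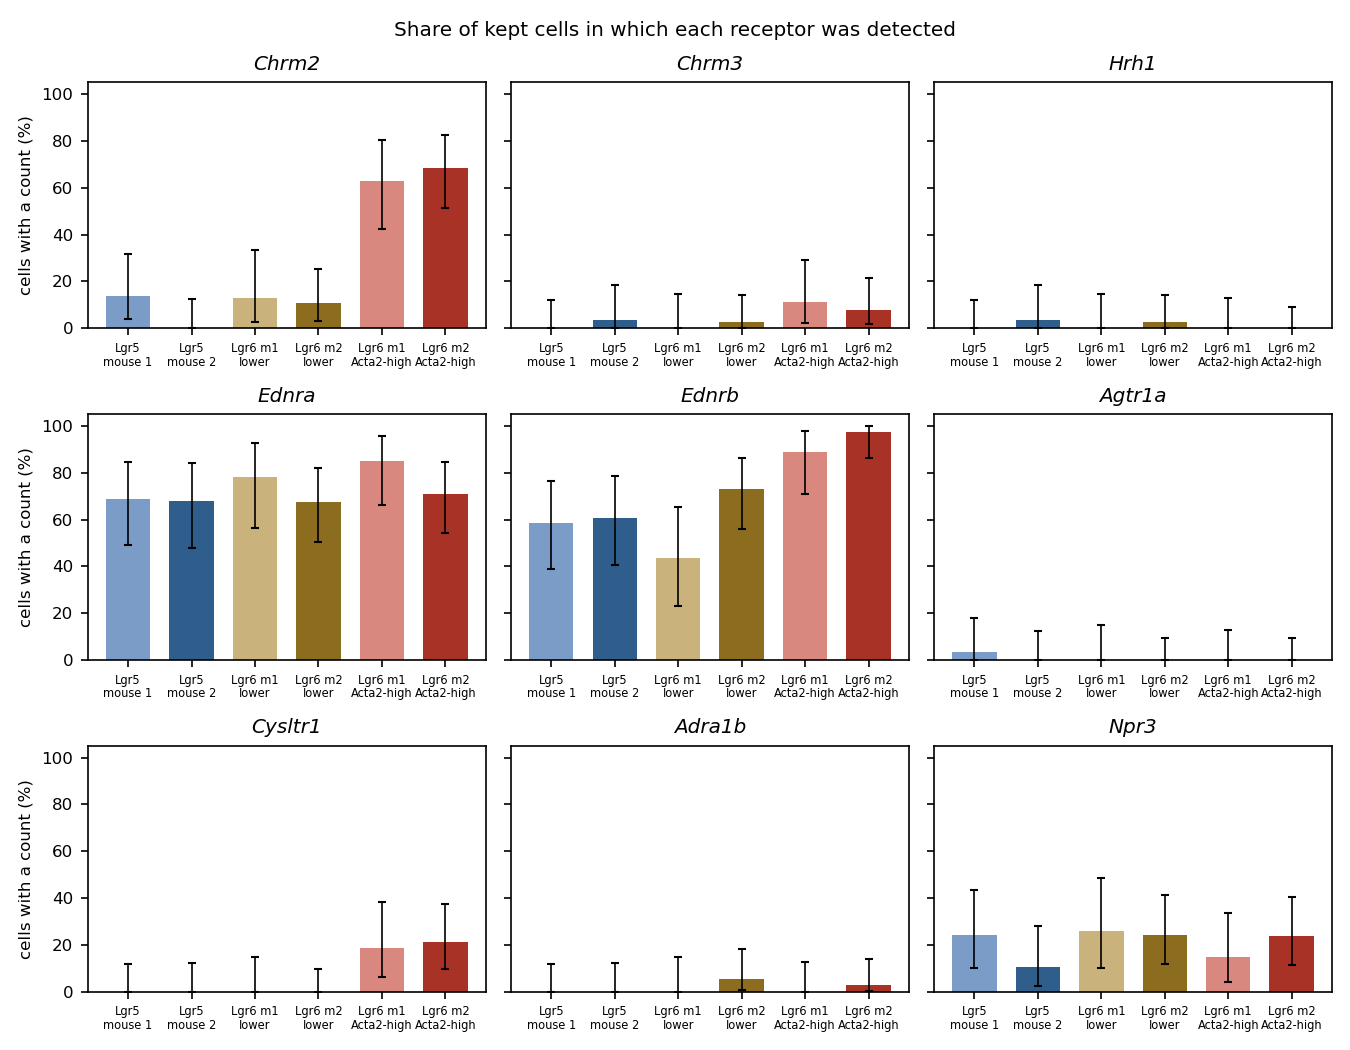
Share of kept cells with at least 1 count of each receptor (y axis, percent) in the Lgr5 mice and in the lower and Acta2-high cells of the Lgr6 mice; bars are single mice and lines are exact 95% binomial intervals. Chrm2 stood at 63% and 68.4% in the Acta2-high cells of Lgr6 mice 1 and 2 and at 13.8% or below in the other 4 bars.

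Chrm2, the muscarinic receptor that couples to Gi, was detected mainly in Acta2-high cells. It was detected in 17 of 27 Acta2-high cells of Lgr6 mouse 1 (63%, 42.4% to 80.6%) and in 26 of 38 of mouse 2 (68.4%, 51.4% to 82.5%). Among the lower cells it was detected in 3 of 23 (13%, 2.78% to 33.6%) and in 4 of 37 (10.8%, 3.03% to 25.4%). The intervals of the 2 classes did not overlap in either mouse. In the Lgr5 mice it was detected in 4 of 29 cells and in 0 of 28 cells, which allows a share of up to 10.7%. Median totals per cell were 418813 and 1546057 counts in the Acta2-high cells of the 2 mice and 165685 and 1511706 in the lower cells. At 1 common depth of 99000 reads, for which 6 and 1 Acta2-high and 7 and 1 lower cells were too shallow, the shares in Lgr6 mice 1 and 2 were 66.7% and 64.9% of Acta2-high cells and 18.8% and 8.33% of lower cells.

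The level of Chrm2 followed the same split. Its mean log2(TPM + 1) was 5.36 and 5.70 in the Acta2-high cells of Lgr6 mice 1 and 2, against 1.20 and 0.80 in the lower cells, and 1.08 and 0 in the Lgr5 mice. Summed per mouse and normalised by TMM, the counts gave 897 and 307 CPM in Acta2-high cells and 76.1 and 68.5 CPM in lower cells. Both Acta2-high values were above both lower values. One cell of mouse 1 supplied 8995 of its 16504 Chrm2 counts, which is 54.5%.

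The fit to all genes, edgeR's quasi-likelihood test with the mouse as a block, put Chrm2 at a log2 fold change of 2.86 (SE 0.56) between Acta2-high and lower cells. The unadjusted p was 0.00389 and the Benjamini-Hochberg adjusted p over 13529 genes was 0.573. The change was in the same direction in both mice but did not pass the threshold of 0.05. DESeq2 gave 2.84 (SE 1.07) with an adjusted p of 0.0893.

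The 7 lower cells of the Lgr6 mice with a Chrm2 count were few but mostly not marginal. Their counts ran from 1 to 2528. In 5 of them Acta2 was between 9.35 and 10.65 on the log2(TPM + 1) scale, and in the others Acta2 was at 0. One cell without Acta2 held 767 counts of Chrm2, and the other held 1. In Lgr5 mouse 1 the single Acta2-high cell, with Acta2 at 12.97 on that scale, held 521 of the 747 Chrm2 counts of that mouse, and 3 other cells held the rest. Summed per mouse, Chrm2 gave 71.4 and 0 CPM in Lgr5 mice 1 and 2 against 619 and 198 CPM in Lgr6 mice 1 and 2, and its log2 fold change was 3.52 (SE 2.08, adjusted p 0.698 by edgeR). With 1 mouse left out this value ran from 2.38 without Lgr6 mouse 1 to 17.4 without Lgr5 mouse 1, where Chrm2 was at 0 in the Lgr5 mouse that was left. Being at 0 in Lgr5 mouse 2, Chrm2 passed the filter on low counts through the Lgr6 mice, so its change between the lines is a description.

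**Figure D2:**
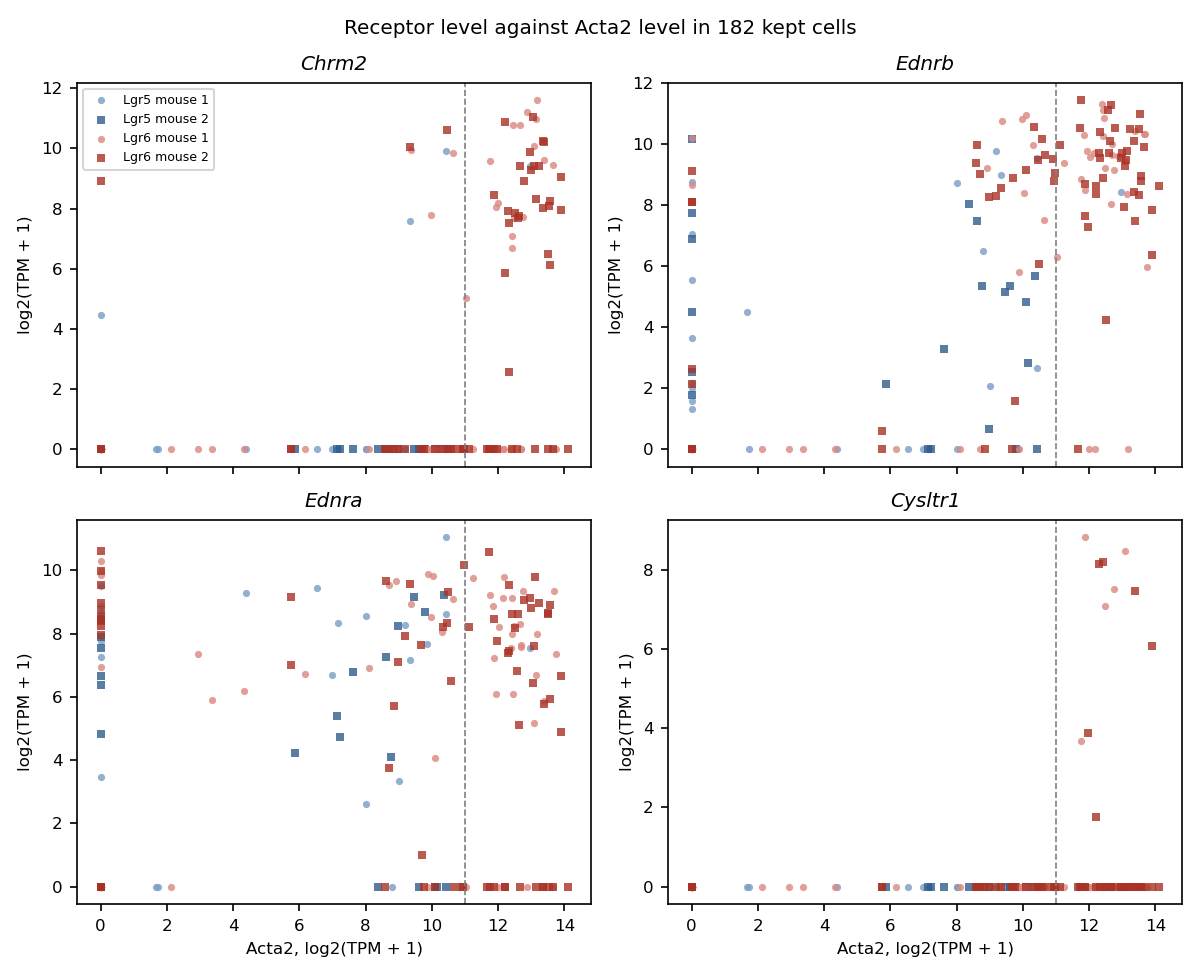
Level of Chrm2, Ednrb, Ednra and Cysltr1 (y axes, log2(TPM + 1)) against Acta2 (x axis, log2(TPM + 1)) in each kept cell, coloured by mouse; the dashed line is the division at 11. Cysltr1 lies wholly to the right of the line, Chrm2 mostly to the right, and Ednra is spread along the whole axis.

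Bands of Acta2 level showed where along this range each receptor appeared, over the cells of both Lgr6 mice together. Chrm2 was detected in 2 of 23 cells with Acta2 under 1, in 2 of 13 at 10 to 11, in 5 of 13 at 11 to 12, in 20 of 28 at 12 to 13 and in 18 of 24 at 13 and over. Ednrb was already frequent below the division: 10 of 23 cells with Acta2 under 1, 13 of 13 at 10 to 11, 12 of 13 at 11 to 12 and 23 of 24 at 13 and over. Ednra was found in 14 of 23 cells of the lowest band and in 17 of 24 of the highest. Median totals in these bands ran from 201640 to 1444024 counts per cell, and the bands under 20 cells are thinly filled.

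Ednrb, the endothelin receptor that binds all endothelins alike, was the most abundant of the 9 per unit of length in Acta2-high cells. It was detected in 24 of 27 Acta2-high cells of Lgr6 mouse 1 (88.9%, 70.8% to 97.7%) and in 37 of 38 of mouse 2 (97.4%, 86.2% to 99.9%). In lower cells it was detected in 10 of 23 (43.5%, 23.2% to 65.5%) and in 27 of 37 (73%, 55.9% to 86.2%). The intervals of the classes were separate in mouse 1 and overlapped at their ends in mouse 2. Its mean log2(TPM + 1) was 8.38 and 8.96 in Acta2-high cells of the 2 mice, 4.01 and 4.79 in lower cells, and 3.22 and 3.01 in the Lgr5 mice.

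Summed counts of Ednrb gave 1020 and 1151 CPM in Acta2-high cells and 840 and 384 CPM in lower cells. The log2 fold change was 0.93 (SE 0.44), with an adjusted p of 0.809 by edgeR. It was 0.24 from mouse 1 alone and 1.58 from mouse 2 alone. It was 2.15 (SE 0.46, adjusted p 0.586) with Acta2 divided at 10 and 2.173 (SE 0.52, adjusted p 0.548) by edgeR without the cells near the division, an alternative chosen after the data were seen. In the lower cells of mouse 1 a single cell held 5204 of 9057 counts, 57.5%. The mean of log values gives each cell the same weight, whereas the sum follows the cells with most counts.

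Between the lines Ednrb was the receptor with the smallest p. Its counts gave 187.05 and 105.8 CPM in Lgr5 mice 1 and 2 against 995 and 805 CPM in Lgr6 mice 1 and 2, with both Lgr6 mice above both Lgr5 mice. The log2 fold change was 2.62 (SE 0.46), the unadjusted p 0.000834 and the adjusted p over 14086 genes 0.327 by edgeR. DESeq2 gave 2.53 (SE 0.90) and an adjusted p of 0.07. Because the Lgr6 mice hold 65 Acta2-high cells and the Lgr5 mice 1, the line comparison also compares cells of unlike classes, and fewer cells of a type and less RNA per cell cannot be told apart in such sums.

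Ednra, the receptor with preference for endothelin 1, was detected in most cells of every group. The shares were 85.2% and 71.1% of Acta2-high cells in Lgr6 mice 1 and 2, 78.3% and 67.6% of lower cells, and 69% and 67.9% in Lgr5 mice 1 and 2. Its summed counts gave 478 and 336 CPM in Acta2-high cells against 443 and 457 CPM in lower cells, so that the groups overlapped. The log2 fold change was -0.17 (SE 0.40, adjusted p 1 by edgeR). Between the lines the values were 474 and 192.2 CPM in Lgr5 mice 1 and 2 against 486 and 405 CPM in Lgr6 mice 1 and 2. The log2 fold change was 0.42 (SE 0.52, adjusted p 0.857 by edgeR). One cell held 2501 of the 4959 Ednra counts of Lgr5 mouse 1, which is 50.4%. The change was 1.22 without Lgr5 mouse 1 and -0.18 without Lgr5 mouse 2. Averaged over the cells of each mouse, log2(TPM + 1) was 4.97 and 4.21 in Lgr5 mice 1 and 2 against 6.60 and 5.42 in Lgr6 mice 1 and 2. These means did not overlap between the lines, although the single cells did. How often other genes separate the lines on this measure was not tested. On summed CPM, where Ednra overlapped, 42.9% of all tested genes separated the lines in either direction. Shares of cells with at least 5 counts were 55.2% and 53.6% against 76% and 68%, in cells of unlike depth. With cells thinned to the common depth, shares with a count were 64.3% and 64% in Lgr5 mice 1 and 2. They were 78.4% and 67.1% in Lgr6 mice 1 and 2. With all single-cell wells the log2 fold change was 2.13 (SE 0.50), with an adjusted p of 0.0508 by edgeR.

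The 2 endothelin receptors were found together in most Acta2-high cells. Of 65 such cells, 48 had counts of both, 41 had Chrm2 with Ednrb, and 32 had all 3. Ednrb was nearly as frequent without the other receptor. It was found in 48 of 50 Acta2-high cells with Ednra and 13 of 15 without, and in 41 of 43 with Chrm2 and 20 of 22 without. Among lower cells Ednrb was found in 30 of 43 with Ednra and 7 of 17 without. Of the 60 lower cells, 30 had both endothelin receptors and 6 had all 3. The number of receptors with a count reached a median of 3 per Acta2-high cell and 2 per lower cell in both mice, and 17 of 27 and 26 of 38 Acta2-high cells had at least 3, against 4 of 23 and 9 of 37 lower cells.

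Cysltr1, the receptor through which leukotriene D4 contracts airways, was found in Acta2-high cells alone among the kept cells. It was detected in 5 of 27 such cells in Lgr6 mouse 1 (18.5%, 6.3% to 38.1%) and in 8 of 38 in mouse 2 (21.1%, 9.55% to 37.3%). It was at 0 in all 60 lower cells of the Lgr6 mice and in all 57 kept cells of the Lgr5 mice. Counts of 0 allow shares of up to 13% and 8.11% in the lower cells of the 2 Lgr6 mice, and of up to 10.3% and 10.7% in the Lgr5 mice. The exact upper limit in lower cells was 14.8% in Lgr6 mouse 1, within the interval of its Acta2-high cells. In mouse 2 it was 9.49%, just below the interval of the Acta2-high cells there.

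The 13 cells with Cysltr1 held 2902 counts, 307 in mouse 1 and 2595 in mouse 2, and the highest cell of each mouse held 66.8% and 39.8% of them. The level in Acta2-high cells was 857-fold that of an assumed 3 counts over all lower cells. The level in the Lgr6 mice was 145.4-fold that of an assumed 3 counts over the Lgr5 cells. From Lgr6 mouse 1 alone these ratios were 65.1-fold and 81.8-fold, and from mouse 2 alone 826-fold and 160.1-fold. They are not lower limits, because reads carry no molecular identifiers and 1 cell with a count can hold many reads. By edgeR the adjusted p was 0.602 for the classes and 0.327 for the lines. By DESeq2 it was 1.84e-06 and 4.13e-05, and DESeq2 called no other receptor in either comparison. Cysltr1 passed the filter on low counts through the group where it was high, as did Chrm3, and Chrm2 between the lines. The direction of Cysltr1 was thereby fixed, and these p-values are given as a description.

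All 13 cells with Cysltr1 also had Ednrb, 12 had Ednra and 9 had Chrm2. Among the 52 Acta2-high cells without Cysltr1, 48 had Ednrb, 38 had Ednra and 34 had Chrm2. Cells with Cysltr1 had a median total of 1537175 counts against 913101 in the others, and thinned to 99000 reads the shares of Acta2-high cells with Cysltr1 were 14.3% and 16.2%.

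Chrm3, the Gq-coupled muscarinic receptor that drives contraction by acetylcholine in airway muscle, was seen in few cells at this depth. It was detected in 3 of 27 and 3 of 38 Acta2-high cells, in 0 of 23 and 1 of 37 lower cells, and in 0 of 29 and 1 of 28 kept Lgr5 cells. The shares in Acta2-high cells were 11.1% (2.35% to 29.2%) and 7.89% (1.66% to 21.4%). All 6 Acta2-high cells with Chrm3 also had Chrm2, and so did 37 of the 59 without it. One cell held 91.4% of the counts of the Acta2-high cells of mouse 1, and another held 85.4% in mouse 2. The fitted log2 fold changes were 4.98 (SE 3.11) for the classes and 2.78 (SE 2.18) for the lines, with adjusted p of 0.944 and 0.77 by edgeR. For the classes the value was 2.42 without Lgr6 mouse 1 and 9.89 without Lgr6 mouse 2, and for the lines it ran from 1.80 without Lgr5 mouse 1 to 11.6 without Lgr5 mouse 2.

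Measured per length, the order of the receptors in Acta2-high cells was the same in both Lgr6 mice. Mean TPM was 825 ± 9.87 (SD, n = 2 mice) for Ednrb, 474 ± 147.1 for Chrm2, 269 ± 30.8 for Ednra, 32.2 ± 14.3 for Cysltr1, 9.69 ± 0.129 for Chrm3 and 0.633 ± 0.86 for Npr3. No receptor's 2 mice overlapped those of its neighbour in this order. In lower cells Ednrb (353 ± 70.1) and Ednra (346 ± 58.1) did not differ beyond the spread between mice, and Chrm2 was at 88 ± 5.97. In the Lgr5 mice Ednra was at 256.9 and 127.1, Ednrb at 100.7 ± 34.6 and Chrm2 at 32 ± 45.2, and the mean TPM of Ednra in its lower mouse, 127.1, lay next to that of Ednrb in its higher mouse, 125.2.

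**Figure D3:**
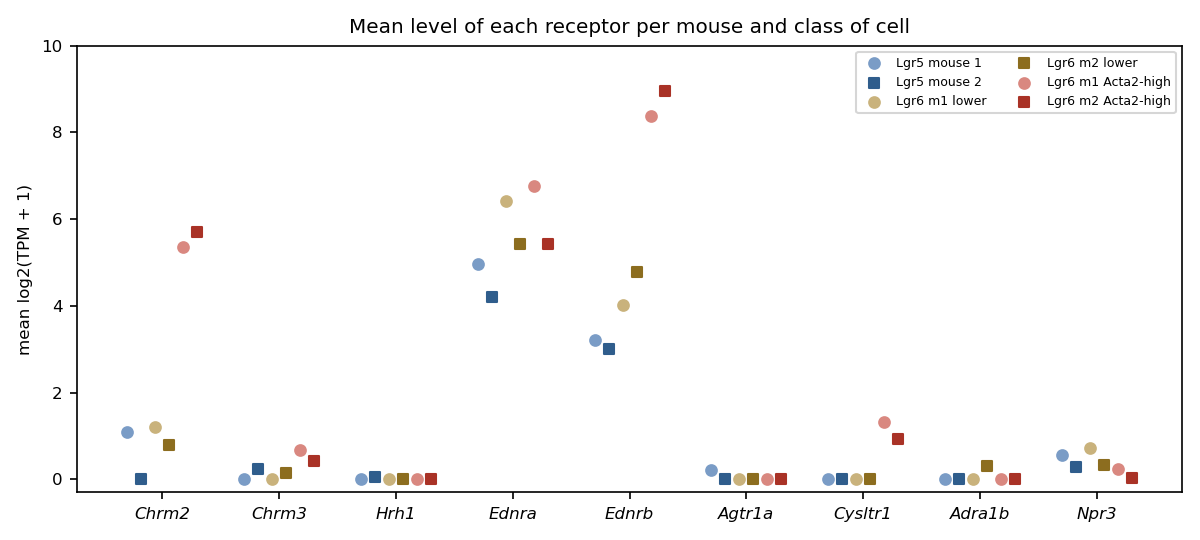
Mean log2(TPM + 1) of each of the 9 receptors (y axis) in the cells of each Lgr5 mouse and in the lower and Acta2-high cells of each Lgr6 mouse; every point is 1 mouse and class. Chrm2 at 5.36 and 5.70 and Ednrb at 8.38 and 8.96 set the Acta2-high points apart, while the Ednra points of the 2 classes lie close together within each mouse.

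Npr3, the clearance receptor, had counts in every mouse but few of them in each cell. It had a count in 7 of 29 and 3 of 28 kept Lgr5 cells, in 4 of 27 and 9 of 38 Acta2-high cells and in 6 of 23 and 9 of 37 lower cells of the Lgr6 mice. The median count in a cell with Npr3 was between 2 and 9 in these groups, and single cells held 372 of 395 counts in the lower cells of Lgr6 mouse 1 and 329 of 446 in those of mouse 2. Its summed counts gave 5.87 and 0.449 CPM in Acta2-high cells and 36.7 and 7.50 CPM in lower cells, a log2 fold change of -3.34 (SE 1.71, adjusted p 0.857 by edgeR). Between the lines it was 2.06 (SE 1.55, adjusted p 0.759 by edgeR). Thinned to 99000 reads, 25% and 5.56% of lower cells and 9.52% and 2.7% of Acta2-high cells kept a count.

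Hrh1, Agtr1a and Adra1b did not pass the filter on low counts in either comparison. Hrh1 had 4 counts in 1 cell of Lgr5 mouse 2 and 2 counts in 1 lower cell of Lgr6 mouse 2. Agtr1a had 8 counts in 1 cell of Lgr5 mouse 1. Adra1b had 1 count in 1 Acta2-high cell and 281 counts in 2 lower cells of Lgr6 mouse 2, of which 1 cell held 247. Neither Hrh1 nor Agtr1a had a count in an Acta2-high cell of Lgr6 mouse 1 or 2, which allows shares of cells with a count of up to 11.1% and 7.89%.

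**Figure D4:**
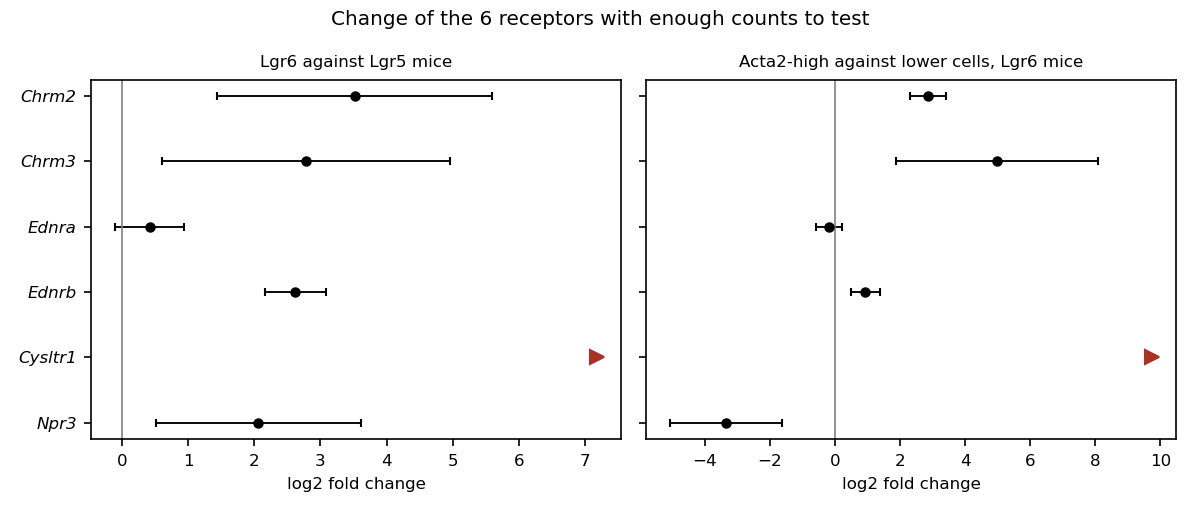
Log2 fold change of the 6 receptors that passed the filter on low counts (x axes). The left side compares Lgr6 with Lgr5 mice, and the right side Acta2-high with lower cells of the Lgr6 mice. Points are edgeR estimates and bars are standard errors. Triangles mark Cysltr1, which was at 0 in the group it is compared with. They show its log2 ratio to an assumed count in that group and are not lower limits. Ednra lies near 0 on both sides, at 0.42 and -0.17, although the left value ran from -0.18 to 1.22 with a mouse left out.

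Across all genes edgeR and limma called few genes or none, and DESeq2 called more. Between the lines edgeR called 0 of 14086 genes at an adjusted p under 0.05 (0%), with 1312 at an unadjusted p under 0.05 (9.31%), limma on mean TPM called 0, and DESeq2 called 955 of 15510 (6.16%, with 2.55% higher and 3.61% lower in the Lgr6 mice). Of the unadjusted ones, 5.25% of all genes were higher. Between the classes edgeR called 4 of 13529 (0.0296%, with 0.00739% higher and 0.0222% lower in Acta2-high cells), with 1039 at an unadjusted p under 0.05 (7.68%, and 2.88% higher). DESeq2 called 961 of 13724 (7%, with 2.89% higher and 4.12% lower). No receptor was called by edgeR in either comparison. The 4 genes were Acta2, which set the division, and the surfactant genes Sftpa1, Sftpc and Sftpd. Without adjustment Ednrb and Cysltr1 were under 0.05 between the lines, and Chrm2 and Cysltr1 between the classes.

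Of the 6 receptors that could be tested, 5 were higher in both Lgr6 mice than in both Lgr5 mice, beside 24% of all tested genes, with 18.9% lower and 42.9% in either direction. Between the classes 4 were higher without overlap, beside 19.3% of all tested genes, and Npr3 was lower without overlap, beside 19.9% and 39.2% in either direction. These counts are a description and support nothing about the set. Chrm3 and Cysltr1, and Chrm2 between the lines, passed the filter through the group where they were high, which tied their direction to it. With 2 mice against 2 an exact two-sided permutation test of the mean log2(TPM + 1) per mouse cannot give a p under 0.333. It gave 0.333 for Chrm2, Chrm3, Ednra, Ednrb and Cysltr1, 0.667 for Npr3 and 1 for Hrh1, Agtr1a and Adra1b.

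The genes most like each receptor over the kept Lgr6 cells were found by the correlation of log2(TPM + 1) after removing each mouse's mean, among 7786 genes detected in at least 20 cells. For Chrm2 they were Actc1, the cardiac actin (r = 0.68), Pcp4l1 (r = 0.65) and Cnn1, the calponin of smooth muscle (r = 0.64). For Ednrb they were the myosin light chain Myl9 (r = 0.67), Acta2 (r = 0.66) and Pdlim3 (r = 0.63). Chrm2 and Ednrb correlated with each other at 0.38 and Chrm2 and Ednra at 0.03. No gene reached 0.5 with Ednra or Npr3. These values describe cells that share 2 mice and differ in depth.

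Other receptors for agonists that contract smooth muscle were mixed in direction. Of 28 such genes 20 were tested, and by edgeR 0 passed the threshold in either comparison. By unadjusted p under 0.05, 4 were higher in the Lgr6 mice, and 2 were higher and 4 lower in Acta2-high cells. Over all tested genes, 5.25% were higher in the Lgr6 mice by this measure. Between the classes 2.88% were higher and 7.68% changed in either direction. The median log2 fold change of this list was 0.08 between the lines, beside 0.05 over all genes, and -0.56 between the classes, beside 0.02. The thromboxane receptor Tbxa2r gave 0 and 0.153 CPM in Lgr5 mice 1 and 2 against 24.8 and 64.5 CPM in Lgr6 mice 1 and 2 (adjusted p 0.327 by edgeR). The tachykinin receptor Tacr2 gave 0.478 and 0.0762 CPM against 10.8 and 6.28 CPM. The prostaglandin F receptor Ptgfr was higher in both lower groups than in either Acta2-high group, with 0.326 and 0.108 CPM in Acta2-high cells and 90.4 and 12.4 CPM in lower cells. The thrombin receptor F2r had 94.7 and 48.6 CPM in Acta2-high cells against 551 and 259 CPM in lower cells (adjusted p 0.556 by edgeR), and P2ry2 and S1pr2 had at most 0.031 CPM in Acta2-high cells, against 7.89 and 23.6 CPM and 1.39 and 21.1 CPM in lower cells. DESeq2 called 4 of 24 genes of this list higher in the Lgr6 mice, beside 2.55% of all genes. Of 20 it called 2 higher and 4 lower in Acta2-high cells, beside 2.89% and 4.12% of all genes. In this list and those below, genes near 0 in a group, such as Tbxa2r, P2ry2 and S1pr2, passed the filter through the other group. That fixed their direction.

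Receptors and enzymes that relax muscle through cyclic nucleotides gave 0 calls by edgeR among 17 tested of 20, with 3 higher in the Lgr6 mice and 1 higher and 3 lower in Acta2-high cells by unadjusted p under 0.05. Their median was 1.04 between the lines and 0.04 between the classes. The phosphodiesterases Pde4d and Pde5a were at 34.8 and 33.9 CPM and at 60.2 and 55.4 CPM in the Lgr5 mice, against 262 and 220 CPM and 280 and 224 CPM in the Lgr6 mice, both with an adjusted p of 0.327 by edgeR. Pde5a, which breaks down cyclic GMP, was also at 328 and 370 CPM in Acta2-high cells against 165.6 and 52.5 CPM in lower cells. The VIP receptor Vipr2 and the prostaglandin receptor Ptger4 gave 5.57 and 125.9 CPM and 33.9 and 19.8 CPM in lower cells, against 0.163 and 1.76 CPM and 0 and 0.34 CPM in Acta2-high cells. DESeq2 called 1 of 17 genes of this list higher in the Lgr6 mice, beside 2.55% of all genes. Of 17 it called 2 lower in Acta2-high cells, beside 4.12% of all genes. The shares over all genes by unadjusted p are those given for the contractile list.

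Ligands of these receptors and the enzymes that make or degrade them ranged from a few cells to most cells. Of 16 genes, 7 and 8 were tested, with 0 calls by edgeR, 2 higher in the Lgr6 mice and 3 higher and 1 lower in Acta2-high cells by unadjusted p under 0.05, and medians of -0.31 between the lines and 1.16 between the classes. Edn1, the main endothelin of the lung, had a count in 2 of 27 and 4 of 38 Acta2-high cells and in none of the lower cells. Ece1, which activates it, was detected in 20 and 33 Acta2-high cells and in 17 and 32 lower cells. Agt, the precursor of angiotensin, gave 163.3 and 124.7 CPM in Acta2-high cells against 41.5 and 28.7 CPM, and 6.6 and 2.9 CPM in the Lgr5 mice against 123.5 and 80.8 CPM in the Lgr6 mice (adjusted p 0.602 for the classes and 0.327 for the lines by edgeR). Hdc, the enzyme that makes histamine, was at 0 in Acta2-high cells and at 7.24 and 55.3 CPM in lower cells. DESeq2 called 1 of 9 genes of this list higher in the Lgr6 mice, beside 2.55% of all genes. Of 8 it called 2 higher and 1 lower in Acta2-high cells, beside 2.89% and 4.12% of all genes. The shares over all genes by unadjusted p are again those of the contractile list.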

How the data were processed

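Single cells and 1 pool of cells per mouse were sequenced by Smart-seq2 in 96 wells of each of 4 mice. Per the methods and the submitters' processing notes, reads were demultiplexed with bcl2fastq 2.17.1.14 and quantified with kallisto 0.43.0 against mm10. The authors deposited gene counts of all wells and values of log2(TPM + 1) of all wells and of the kept cells. Cells were kept by the authors on gene number, housekeeping genes, Tom level and absence of Ptprc and Pecam1. A deposited table of rescaled counts was not used.

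The receptors and gene lists were chosen with earlier results of these data known. For each mouse, or each Acta2 class of a mouse, the counts of its kept cells were added up and tested with edgeR 4.0.16 in R 4.3.3 (quasi-likelihood test, TMM, filterByExpr), with the mouse as a block between classes. Benjamini-Hochberg adjustment ran over all genes tested, at 0.05. DESeq2 1.42.0 and limma 3.58.1 were alternatives; edgeR and DESeq2 were checked on simulated data. All receptors are named. Where none of a list passed, the genes named were among the 4 of smallest p, not all of which are given. Edn1 and Ece1 are named without regard to p. Marker lists are given as summed CPM. Detection is a count above 0. Intervals cover counting error only, since reads carry no molecular identifiers. P-values between the lines measure the spread between 2 mice per group. Those between the classes measure how the difference within a mouse varied over the 2 Lgr6 mice. Doublets were not called. Totals per kept cell ran from 9748 to 4538878 counts. One further gene list was tested and is not reported here.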

Additional observations from a re-analysis of the deposited data

Results flagged for a closer look

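The single-cell wells that the authors removed were pooled over the 2 Lgr5 mice. In them 3 receptors had shares whose exact intervals lay wholly above those of the kept cells, pooled likewise. Agtr1a was detected in 32 of the 66 and 67 removed wells of Lgr5 mice 1 and 2 (24.1%, exact 95% interval 17.1% to 32.2%), against 1 of 57 kept Lgr5 cells (1.75%). Cysltr1 was detected in 19 of them (14.3%, 8.83% to 21.4%), against 0 of 57 kept cells. Npr3 was detected in 59 of them (44.4%, 35.8% to 53.2%), against 10 of 57 kept cells (17.5%). Intervals of the other receptors overlapped. Hrh1 was detected in 14 removed wells (10.5%, 5.88% to 17.03%) against 1.75% of kept cells, and Adra1b in 12 (9.02%, 4.75% to 15.2%) against 0. Chrm2 was detected in 17 (12.8%, 7.63% to 19.7%) against 7.02%. Chrm3 was detected in 2.26% of removed wells against 1.75% of kept cells, Ednra in 54.9% against 68.4%, and Ednrb in 55.6% against 59.65%. Agtr1a was found in 19 and 13 removed wells of Lgr5 mice 1 and 2, Cysltr1 in 14 and 5, and Npr3 in 43 and 16. Among kept cells of these mice Agtr1a was found in 1 of 29 and 0 of 28, Cysltr1 in 0 and 0, and Npr3 in 7 and 3. In mouse 2 the removed shares of Cysltr1 and Npr3 lay below the exact upper limits of the kept cells, 12.3% and 28.2%. Intervals were not taken for the removed wells of each mouse alone. Wells with at least 5 counts were fewer, 19 for Agtr1a, 6 for Cysltr1 and 31 for Npr3. In the 54 removed wells with both Ptprc, the gene of CD45, and Pecam1, the gene of CD31, the shares were 48.1% for Agtr1a, 33.3% for Cysltr1 and 66.7% for Npr3. In the 18 wells with Ptprc alone, Agtr1a was found in 1, Cysltr1 in 0 and Npr3 in 6. In the 29 wells with Pecam1 alone, Agtr1a was found in 5, Cysltr1 in 1 and Npr3 in 12. In the 32 wells with neither the shares were 0 for Agtr1a, 0 for Cysltr1 and 15.6% for Npr3. The median total there was only 16372.5 counts per well against 265260.5 in the wells with both. In the 65 removed Lgr6 wells Agtr1a was at 0, Cysltr1 was detected in 2 wells and Npr3 in 5. These wells entered no comparison above, and why they hold these receptors was not tested.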

How the results depend on the processing

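Between the lines, the share of tested genes called went from 0% to 6.16% with DESeq2, 2.07% with no filter on low counts, 0.12% with cells thinned to 1 depth and 0.738% with all single-cell wells. It was 0% to 0.217% when a mouse was left out (34 genes without Lgr6 mouse 1, 7 without Lgr6 mouse 2). Receptors called went from 0 to 1 with DESeq2 (Cysltr1), 3 with no filter (Chrm2, Ednrb and Cysltr1) and 1 with all wells (Ednrb, adjusted p 0.0331 by edgeR). Between the classes, the share called went from 0.0296% (4 genes) to 7% with DESeq2 (961 genes), 0.0517% with RLE factors, 0% with no replicate block, 0.128% with thinned cells, 0.082% and 0% with Acta2 divided at 10 and 12, and 0.143% with limma at a pseudocount of 0.1. Chosen after seeing the data, sums without Rn45s gave 0.052% and leaving out the cells near the division gave 0.123%. Receptors called went from 0 to 1 with DESeq2 (Cysltr1). The causes were not tested.

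With a mouse left out, the log2 fold change of Ednra ran from -0.18 (without Lgr5 mouse 2) to 1.22 between the lines, and from -0.45 to 0.072 (without Lgr6 mouse 2) between the classes. That of Npr3 between the lines was -0.10 with all wells. The difference in mean log2(TPM + 1) between the lines was -0.025 for Adra1b with all wells, and for Npr3 ran from -0.25 to 0.044 (without Lgr5 mouse 1) with a mouse left out, at 0.041 without Lgr6 mouse 2. Mouse numbers did not pair the lines (r = 0.0385 over 14086 genes), and with the number as a replicate block 0 genes and 0 receptors were called. Leaving out a mouse between the classes gave a value with no test. Adding the Lgr5 mice to that comparison was not run, as they had 1 and 0 Acta2-high cells. Shares of rarely detected receptors are limited by depth and cell number.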

Other observations

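The pool well of each mouse, 1 per mouse and in no comparison, held the receptors in the same tissue sort. In the pools of Lgr5 mice 1 and 2, with 353310 and 204948 counts in all, Ednra stood at 8.06 and 10.3 on the log2(TPM + 1) scale, Chrm2 and Ednrb had 0, and Acta2 was at 0. In the pools of Lgr6 mice 1 and 2, with 66586 and 2203576 counts, Acta2 stood at 13.5 and 13.9 on that scale. Chrm2 had 8 and 1229 counts there, Ednrb 68 and 282, and Ednra 0 and 1177. Npr3 had 2 counts in the pool of Lgr5 mouse 1 and 1 in that of Lgr6 mouse 2. Chrm3, Hrh1, Agtr1a, Cysltr1 and Adra1b were at 0 in all 4 pools.

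Adra1b was found in 2 lower cells of Lgr6 mouse 2 with 34 and 247 counts, both with Acta2 under 1 on the log2(TPM + 1) scale. Chat, the enzyme that makes acetylcholine, was detected in 14 of 38 Acta2-high and 15 of 37 lower cells of Lgr6 mouse 2, with 42 and 26 counts in all.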
